A study of Caenorhabditis elegans with 8 samples.

Results

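Potassium channel genes of Caenorhabditis elegans were followed in dauer larvae, the non-feeding and stress-resistant diapause larvae, and in worms leaving that state. The genes were chosen by name. They were every measured gene whose array symbol is a number after twk-, kvs-, kqt-, irk-, shk-, shl-, shw-, slo- or kcnl-, together with egl-2, egl-23, egl-36, exp-2, unc-58, unc-103, sup-9 and the SUP-9 partners unc-93 and sup-10. This gave 58 of the 15082 named genes on the array, read by 123 probes. Two-pore-domain channels made up 42 of the 58, namely 39 numbered twk genes plus sup-9, egl-23 and unc-58. The others were 4 voltage-gated Kv-type genes (kvs-1, shw-3, egl-36, exp-2), 3 KQT genes, the EAG and ERG genes egl-2 and unc-103, the Slo genes slo-1 and slo-2, 3 inward rectifiers (irk-1, irk-2, irk-3) and the 2 SUP-9 partners. No probe with a shk-, shl- or kcnl- symbol was in the annotation used here.

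All worms were wild type N2 Bristol. Dauers came from liquid cultures in S-medium, were freed of other stages with SDS and Ficoll, and rested overnight in salt solution before RNA was taken. Dauer-exit worms were such purified dauers given OP50 bacteria on agar plates for 12 h. The reference was a pool of RNA from mix-stage worms, which grew on plates from a few young adults and so held many stages side by side. Each of the 8 arrays carried 1 sample (4 dauer, 4 dauer exit) in one dye and mix-stage RNA in the other, with the dyes balanced at 2 Cy5 and 2 Cy3 arrays per stage. Replicates were grown in parallel, and p-values cover the spread between such cultures only. Dauers differ from the mix-stage pool and from the exit worms in culture medium and temperature as well as in stage, and these cannot be told apart. Equal amounts of total RNA were labelled, so a ratio is not an amount per worm, and in whole worms fewer cells of a type and less RNA per cell cannot be told apart.

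Potassium channels let potassium leave the cell and so pull the membrane towards rest, which shortens or prevents firing of nerve and muscle. Two-pore-domain channels, with a pair of pore loops in each subunit, carry a leak current that is open at rest, and C. elegans has an unusually large family of them, the TWK genes. Kv, KQT, EAG and ERG channels open when the membrane depolarises, Slo channels respond to intracellular ions as well as voltage, and inward rectifiers pass current best near rest. Dauers stop pharyngeal pumping and mostly lie still until touched, and resume pumping and feeding on food.

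Few of these genes were called. Those that were called were all numbered twk genes, which make up 39 of the 58. At equal total RNA, twk-5 and twk-7 were higher in dauers than in dauer exit. In the same terms, twk-5, twk-7, twk-25 and twk-29 were higher in dauers than in the mix-stage pool. twk-18 and twk-42 were lower in dauers than in the pool. In dauer exit twk-18 was still below mix-stage, and no potassium channel gene was above it. The other 52 genes were called in none of the 3 comparisons. Calls rest on a single limma model with a mean for each stage and need an adjusted p (Benjamini-Hochberg, over all 15082 genes) of at most 0.05. Values are log2 ratios of own over mix-stage RNA (0 is equal to mix-stage, 1 is a 2-fold higher ratio), and a gene's value is the mean of its probes. The ratios carry no absolute level, so genes are not ranked by abundance.

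**Figure D1:**
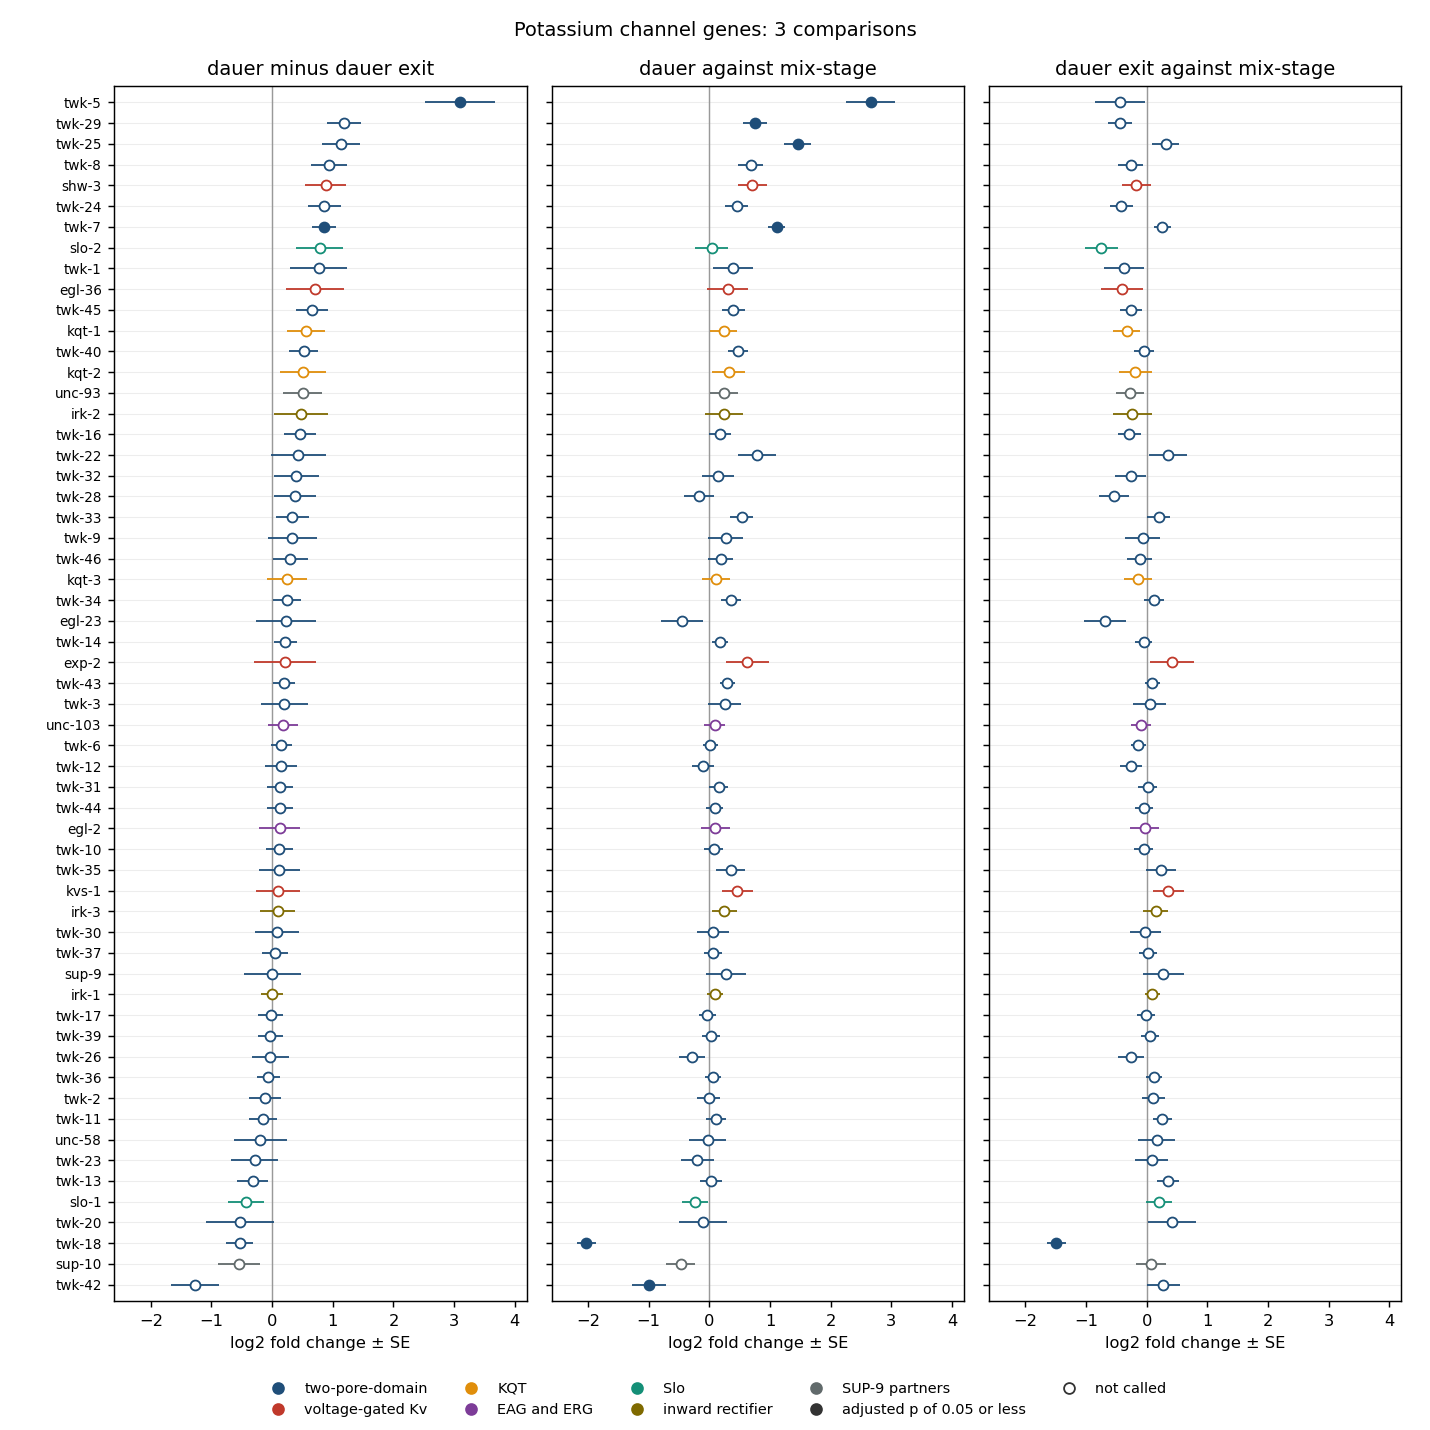
Log2 fold change with its standard error (x axis) of the 58 potassium channel genes (y axis, ordered by the difference between dauer and dauer exit), in 3 panels for dauer minus dauer exit, dauer against mix-stage and dauer exit against mix-stage. Colours give the channel class and filled points are genes at an adjusted p of 0.05 or less: 2, 6 and 1 genes in the 3 panels, all of them twk genes, which make up 39 of the 58. Over all genes, 2.13% were called higher and 1.88% lower in the first comparison, 4.95% and 13.7% in the second, and 0.451% and 9.08% in the third.

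Dauer against dauer exit compares purified dauers with dauers moved from liquid to plates with food for 12 h. Of the 58 genes, 2 were higher in dauers (3.45%, where 2.13% of all genes were called higher) and 0 were lower by limma (1.88% of all genes were called lower). At an unadjusted p under 0.05 there were 8 higher and 2 lower (8.83% and 6.68% of all genes). The 8 were twk-5, twk-7, twk-8, twk-24, twk-25, twk-29, twk-45 and shw-3, and the 2 were twk-18 and twk-42. The difference was above 0 in 43 of the 58 genes (74.1%, against 54.1% of all genes), and the median difference was 0.20 against 0.03 over all genes. Most differences were small, with 39 of the 58 under 0.5 in size on the log2 scale.

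twk-5 (B0334.2, chromosome II), a two-pore-domain gene read by 1 probe, had the widest difference. Its ratios were 2.29, 1.18, 3.26 and 3.91 on dauer replicates 1 to 4 and -1.15, -0.13, -0.83 and 0.35 on dauer-exit replicates 1 to 4. All 4 dauer arrays lay well above mix-stage, the exit arrays scattered around it, and the stages did not overlap. Mean ratios were 2.66 ± 1.19 (SD, n = 4) in dauers and -0.44 ± 0.68 (SD, n = 4) in dauer exit, a difference of 3.10 (SE 0.57, 8.56-fold, limma adjusted p = 0.0194). Against mix-stage twk-5 was 6.31-fold higher in dauers (2.66, SE 0.41, limma adjusted p = 0.00158), while in dauer exit it was not called (-0.44, SE 0.41, limma adjusted p = 0.671). The size varied with the dye. The dauer arrays with own RNA in Cy3 (replicates 3 and 4) were above those in Cy5, and the difference between stages was 2.13 within Cy5 arrays and 4.06 within Cy3 arrays. The call against dauer exit was lost without exit replicate 1 (2.86, adjusted p = 0.0652), replicate 2 (3.20, adjusted p = 0.0503) or replicate 3 (2.97, adjusted p = 0.0705), with the fold little changed.

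twk-7 (F22B7.7, chromosome III) encodes a two-pore-domain channel that acts in motor neurons, and worms without it crawl faster. Averaged over its 2 probes, its ratios were 1.16, 1.16, 0.97 and 1.16 in dauers and 0.58, 0.24, 0.17 and 0.04 in dauer exit. The stages did not overlap, and the difference of 0.86 (SE 0.20, 1.81-fold) only just passed the test (limma adjusted p = 0.0442). That call was lost without any 1 of the 8 arrays, with adjusted p between 0.0523 and 0.121. The mean, however, joined probes that behaved differently. The probe that the annotation ties to a twk-7 transcript accession read 2.06, 2.24, 2.22 and 2.39 in dauers and 0.36, 0.38, 0.34 and -0.02 in dauer exit. The other probe, which carries the twk-7 symbol but no accession, read 0.27, 0.07, -0.27 and -0.08 in dauers and 0.80, 0.10, -0.01 and 0.10 in dauer exit. The first probe was thus tight within each stage and far apart between them, and the second stayed near mix-stage throughout. Taken as separate genes, a choice made after seeing the data, the first differed between stages by 1.96 (SE 0.19, limma adjusted p = 0.00172) and the second by -0.25 (SE 0.24, limma adjusted p = 0.753). The difference of the first probe was called without any 1 array as well, at 1.87 to 2.02. Which transcripts the second probe reads was not tested, since probe sequences were not used here.

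**Figure D2:**
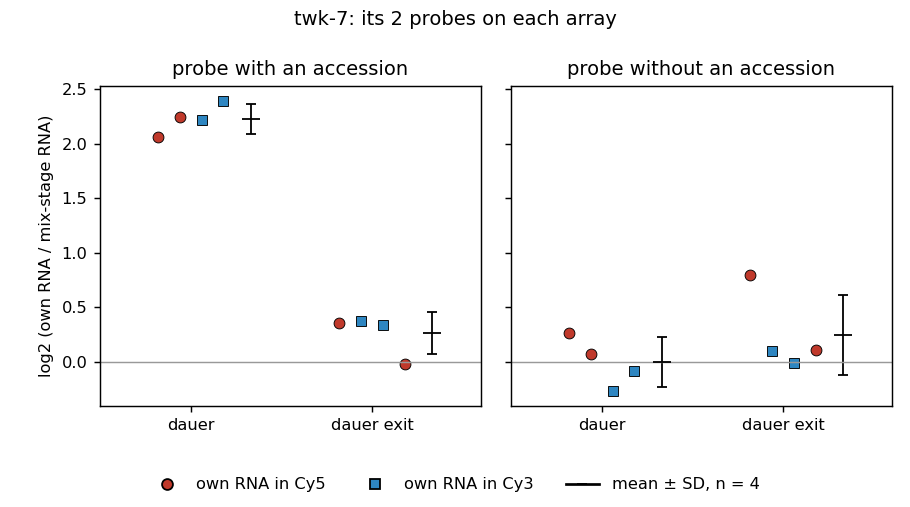
Log2 ratio of own over mix-stage RNA (y axis) on each array for the twk-7 probe with an accession (left) and the twk-7 probe without one (right), by stage (x axis), with circles for own RNA in Cy5, squares for Cy3 and bars for the mean ± SD of 4 arrays. The left probe read 2.06 to 2.39 in dauers and -0.02 to 0.38 in dauer exit, and the right probe overlapped between stages.

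twk-29 and twk-25 stood above mix-stage in dauers and near or below it in dauer exit, but their difference between stages did not pass the test. For twk-29 (F46A9.3, chromosome I) the ratios were 0.22, 0.52, 0.88 and 1.36 in dauers and -0.54, -0.58, -0.02 and -0.63 in dauer exit, so that every dauer array was on one side of 0 and every exit array on the other. Its mean was 0.75 ± 0.49 (SD, n = 4) in dauers, called against mix-stage (SE 0.20, limma adjusted p = 0.0286), and its difference between stages was 1.19 (SE 0.28, limma adjusted p = 0.0517). Both results sat close to the threshold. The call against mix-stage was lost without dauer replicate 2 (0.82, adjusted p = 0.0506), 3 (0.70, adjusted p = 0.0753) or 4 (0.54, adjusted p = 0.127), and the difference between stages was called without dauer replicate 1 (1.36, adjusted p = 0.0441). For twk-25 (M04B2.5, chromosome IV) the ratios were 1.74, 0.69, 1.63 and 1.75 in dauers and 0.16, 0.27, -0.05 and 0.88 in dauer exit. Dauer replicate 2 stood apart, below exit replicate 4, and the other 3 dauer arrays were nearly equal. Dauers were 2.74-fold above mix-stage (1.45, SE 0.22, limma adjusted p = 0.00150). The difference from dauer exit was 1.14 (SE 0.31, limma adjusted p = 0.0836), and without dauer replicate 2 it was 1.39 and called (adjusted p = 0.0232).

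twk-18 and twk-42 were the potassium channel genes below mix-stage. twk-18 (C24A3.6, chromosome X) encodes a two-pore-domain channel of body-wall muscle, where mutations that keep it open paralyse the worm. Its ratios were -2.40, -1.86, -2.12 and -1.72 in dauers and -1.57, -1.41, -1.33 and -1.66 in dauer exit. All 8 arrays were well below mix-stage, and the dauer arrays lay below all exit arrays by a small margin. twk-18 fell by 2.03 in dauers (SE 0.15, 4.07-fold, limma adjusted p = 5.76e-05) and by 1.49 in dauer exit (SE 0.15, 2.81-fold, limma adjusted p = 0.000329), and was called in both under every alternative run, each array left out in turn included. The difference of -0.54 between the stages (SE 0.22, 95% interval -1.02 to -0.05) was not called (limma adjusted p = 0.260).

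Markers of body-wall muscle, like twk-18, were mostly below mix-stage, though the 2 did not follow the same order over the arrays. Of 10 such genes, 7 were lower than mix-stage in dauers and 6 in dauer exit, with list medians of -1.82 and -1.39. Over all genes 13.7% and 9.08% were called lower. Other lists were low in dauers too, with 4 of 5 measured intestine, 6 of 10 germline and 5 of 8 epidermis markers called lower. No neuron or pharyngeal muscle marker was called lower in dauers. The median of the body-wall muscle list lay between -2.38 and -1.23 on the dauer arrays and between -1.93 and -0.73 on the exit arrays. myo-3 and unc-54, the heavy chains of body-wall muscle myosin, were at -3.69 and -2.25 in dauers, while hlh-1, the muscle MyoD factor, was at 0.29 and not called (limma adjusted p = 0.476). The part of muscle content in the result for twk-18 was not tested.

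twk-42 (W06D12.2, chromosome V) had ratios of -1.61, -1.36, -0.44 and -0.56 in dauers and 1.22, 0.06, 0.12 and -0.30 in dauer exit. The stages did not overlap, but the lowest exit array came close to the highest dauer array. Dauers were below mix-stage by a mean of -0.99 (SE 0.28, limma adjusted p = 0.0329), and the difference from dauer exit was -1.27 (SE 0.39, limma adjusted p = 0.124). The call against mix-stage was lost without dauer replicate 1 (-0.79, adjusted p = 0.149), 2 (-0.87, adjusted p = 0.122) or 4 (-1.14, adjusted p = 0.0545), and at an unmoved mean without exit replicate 2 (adjusted p = 0.0522) or 3 (adjusted p = 0.0517), since the stages share a variance estimate.

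**Figure D3:**
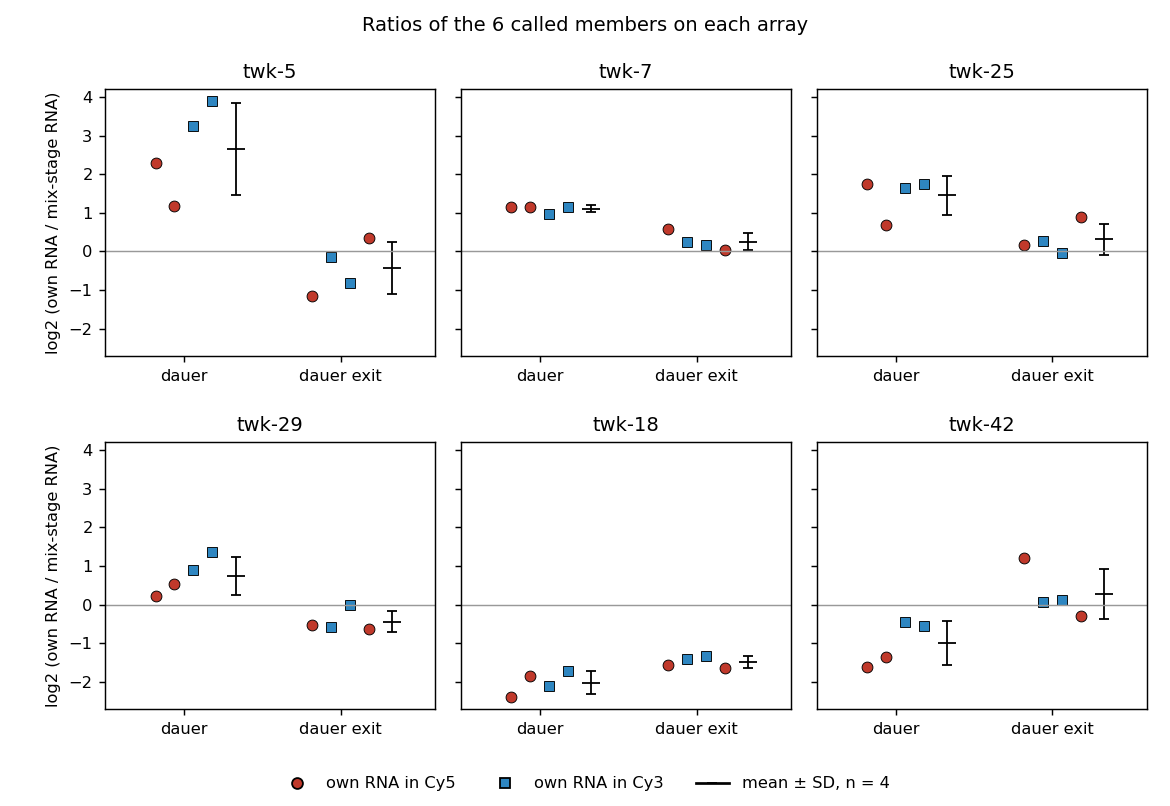
Log2 ratio of own over mix-stage RNA (y axis) on each array for the 6 called potassium channel genes, by stage (x axis), with circles for own RNA in Cy5, squares for Cy3 and bars for the mean ± SD of 4 arrays. twk-5, twk-7 and twk-29 are higher and twk-18 and twk-42 lower on all dauer arrays than on any exit array, and twk-25 overlaps through dauer replicate 2 at 0.69.

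These were all the genes without overlap: 3 with every dauer array above every exit array (5.17%, where 5.38% of all genes were so ordered) and 2 with every dauer array below (3.45%, against 4.19% of all genes). By this measure the potassium channel genes were close to the array as a whole.

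Among the two-pore-domain genes not called, twk-8, singled out after its values were seen, came nearest to the threshold, at 0.71, -0.11, 1.32 and 0.81 in dauers and -0.07, -0.36, -0.33 and -0.29 in dauer exit. Only dauer replicate 2 fell among the exit values. Its dauer mean against mix-stage was 0.68 (SE 0.21, limma adjusted p = 0.0515), and 0.95 without that array (limma adjusted p = 0.00795). twk-24 differed between stages by 0.86 (SE 0.27, limma adjusted p = 0.139) and twk-45 by 0.66 (SE 0.26, limma adjusted p = 0.254). twk-40, which acts in neurons of the motor circuit, was 0.48 above mix-stage in dauers (SE 0.17, limma adjusted p = 0.0851) and at -0.04 in dauer exit. Over all 42 two-pore-domain genes the median difference between stages was 0.18 and 30 were above 0. The 16 members outside that class had a median of 0.23, with 13 above 0 and none called in any comparison.

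SUP-9 is a two-pore-domain channel that works in muscle in a complex with the membrane proteins UNC-93 and SUP-10. None of the 3 genes was called. sup-9 had the same mean of 0.28 in both stages, with a difference of 0.00 (SE 0.47, 95% interval -1.06 to 1.07). Its arrays were not alike, however: exit replicate 1 stood at 1.58 and the other exit arrays at 0.11 or less. The difference of sup-9 was -0.82 within Cy5 arrays and 0.83 within Cy3 arrays. unc-93 differed by 0.51 (SE 0.32, limma adjusted p = 0.558) and sup-10 by -0.55 (SE 0.34, limma adjusted p = 0.550). egl-23 and unc-58, further two-pore-domain genes known from mutants that disturb egg laying and movement, differed by 0.24 (SE 0.49) and -0.19 (SE 0.44).

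Of the voltage-gated genes, the Shaw-type shw-3 had the widest difference between stages, at 0.88 (SE 0.34, limma adjusted p = 0.231). It read 1.23, 0.03, 0.28 and 1.29 in dauers and -0.32, 0.22, -0.53 and -0.06 in dauer exit. Its highest values were those of dauer replicates 1 and 4, while the lowest dauer value fell among the exit values. egl-36, another Shaw-type gene, differed by 0.71 (SE 0.48) and kvs-1 by 0.10 (SE 0.36).

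exp-2, whose channel ends the action potential of the pharynx, rested on single arrays. Its ratios were 0.20, 0.17, 0.04 and 2.10 in dauers and 0.03, 1.43, -0.02 and 0.22 in dauer exit, a difference of 0.21 (SE 0.51, 95% interval -0.93 to 1.36). The other 6 of the 8 arrays thus lay close to mix-stage. By contrast, 5 of 6 measured pharyngeal muscle markers were called higher than mix-stage in dauers (83.3%, where 4.95% of all genes were). In dauers 3 of them were called higher than in dauer exit (50%, where 2.13% of all genes were), with a median difference between stages of 1.84. Taken array by array, the list median differed by 1.13 within Cy5 arrays and 2.57 within Cy3 arrays. The myosin heavy chain gene myo-2 was at 2.26 and the troponin C gene tnc-2 at 2.42 in dauers.

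The KQT genes, relatives of mammalian KCNQ channels, had differences between stages of 0.57 (kqt-1), 0.51 (kqt-2) and 0.25 (kqt-3), none of them called. The EAG gene egl-2 and the ERG gene unc-103 differed by 0.13 (SE 0.34) and 0.18 (SE 0.24), and the inward rectifiers by 0.00 (irk-1), 0.48 (irk-2) and 0.09 (irk-3). irk-1, which serves inhibition of the egg-laying neurons, was among the tightest of all as the mean of its 2 probes, with every array between -0.01 and 0.24. Taken singly, the probes had differences between stages of -0.13 and 0.13, and read 0.45 and -0.25 on exit replicate 1.

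The Slo genes had differences of opposite sign, neither of them called. slo-1, the BK channel that limits transmitter release and muscle excitation, was at -0.44 between stages (SE 0.30, limma adjusted p = 0.602). Its 2 probes were unlike, at -0.84 and -0.04. slo-2 was at 0.79 (SE 0.39, limma adjusted p = 0.383) with ratios of -0.57, -0.69, 0.76 and 0.65 in dauers and -0.63, -0.62, -0.44 and -1.31 in dauer exit. In dauers the sign of slo-2 followed the dye, negative on both Cy5 arrays and positive on both Cy3 arrays, and all 4 of its probes had a positive difference between stages.

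Against the mix-stage pool, 4 of the 58 genes were higher in dauers (6.90%, where 4.95% of all genes were called higher) and 2 were lower (3.45%, where 13.7% of all genes were). The pool counts as 1 control sample, so these tests leave out its own spread. The median over the 58 was 0.16 and over all genes -0.05. At an unadjusted p under 0.05 there were 11 higher and 2 lower (8.60% and 20.0% of all genes). Within Cy5 arrays alone 1 gene was called higher (twk-7, with 1.56% of all genes) and within Cy3 arrays 7 were (twk-1, twk-5, twk-7, twk-8, twk-25, twk-29 and kvs-1, with 6.25% of all genes), so the whole array shared this difference between dyes. Called lower were twk-18 within both dyes and egl-23 within Cy5 arrays, while twk-42 was called within neither.

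In dauer exit, limma called 0 of the 58 genes above mix-stage (0.451% of all genes were) and 1 below, twk-18 (1.72%, where 9.08% of all genes were). At an unadjusted p under 0.05 there were 0 above and 2 below (2.44% and 18.3% of all genes), the second being slo-2 at -0.75 (SE 0.27, limma adjusted p = 0.140). The median over the 58 was -0.04 and over all genes -0.08, and that over the 58 turned to 0.07 with arrays centred on their median and 0.02 with quantile normalization. As deposited, 54 of the 58 genes were within 0.5 of mix-stage on the log2 scale. The 95% interval lay within a 2-fold change either way for 47 of the 58 genes in this comparison, for 42 in dauers against mix-stage and for 26 between the stages. Between the stages the interval of 30 genes that were not called reached past a 2-fold change, so that a change of that size was not excluded for them.

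Taken array by array, the median over the 58 genes was 0.12, 0.01, 0.30 and 0.37 on dauer replicates 1 to 4 and -0.04, 0.06, -0.02 and -0.04 on exit replicates 1 to 4. On 3 dauer arrays it was above all exit arrays and dauer replicate 2 was within their range. The difference in this median was 0.10 within Cy5 arrays and 0.32 within Cy3 arrays, while the median of all genes differed by -0.06 and 0.10. Among the 58 genes, 31 were higher in dauers within both dyes, 7 were lower within both, and the sign depended on the dye in the others. Both Cy3 dauer arrays were above both Cy5 dauer arrays in 29 of the 58, against 38.4% of all genes. Dauer arrays also spread more, with a median SD of 0.454 per gene against 0.334 in dauer exit (0.435 and 0.362 over all genes). The part of dye in these differences was not tested.

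Many of these channels act in neurons. Of 17 neuron markers 2 were called higher than in dauer exit (11.8%, where 2.13% of all genes were). They were ric-19 (2.15, SE 0.42) and sbt-1 (2.56, limma adjusted p = 0.0361), both of dense-core vesicle pathways. The median difference between stages was 0.62, with 14 of the 17 above 0 and 3 below. Taken array by array, the list median differed by 0.23 within Cy5 arrays and 0.91 within Cy3 arrays. The list median lay between -0.49 and 0.64 on dauer arrays and between -0.46 and -0.19 on exit arrays. In dauers it was lowest on replicate 2, as for the potassium channel genes. The same held for the pharyngeal muscle (1.02) and intestine (-2.14) lists, while the body-wall muscle, germline and epidermis lists were lowest on replicate 1. Among the markers not called were the synaptic vesicle gene rab-3 (-0.10), the pan-neuronal rgef-1 (0.00), snb-1 (1.02) and egl-3 (1.33). The part of neuron content in the values of the channel genes was not tested.

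**Figure D4:**
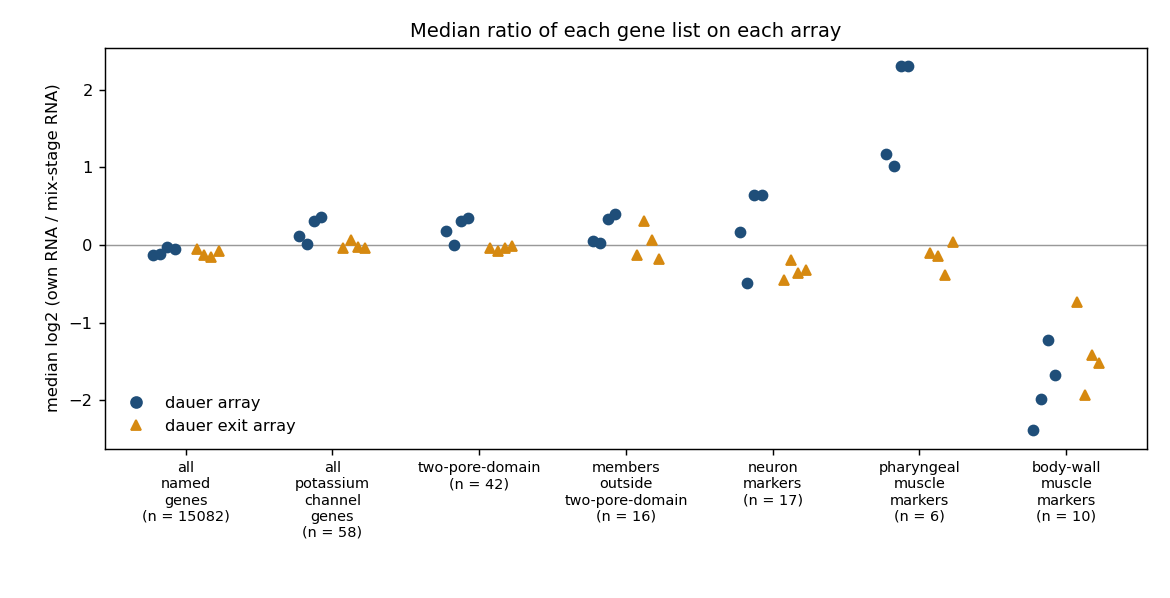
Median log2 ratio of own over mix-stage RNA (y axis) of each gene list (x axis, with the number of genes) on the 4 dauer arrays (circles) and the 4 dauer-exit arrays (triangles), replicates 1 to 4 from left to right. The median over all 58 potassium channel genes stayed between -0.04 and 0.37. That of the pharyngeal muscle markers reached 2.30 in dauers and that of the body-wall muscle markers fell to -2.38.

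Genes that work with these channels or beside them were mostly not called. Of 8 measured accessory subunits and regulators, none was called between stages. Against mix-stage dauers were higher in mps-4 (1.13, SE 0.23, limma adjusted p = 0.00658) and lower in mps-2 (-0.88, SE 0.18, limma adjusted p = 0.00843), both coding for single-span subunits related to the mammalian KCNE family. stn-1, dyb-1, dys-1 and ctn-1, of the dystrophin complex and alpha-catulin that place SLO-1 in muscle, were not called. None of 10 calcium and sodium leak channel genes and none of 6 CLC chloride channel genes was called in any comparison, with median differences between stages of 0.27 and -0.05. Of the sodium pump subunits only eat-6 (-0.64, SE 0.36) and catp-1 (0.49, SE 0.47) were measured, and neither was called.

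Where a gene had several probes, these often disagreed in sign. Among the 26 such members, 14 had probes on both sides of 0 for the difference between stages, and 16 of the 123 probes carried a symbol without an accession. twk-9, noticed after the values were seen, was a further case, with differences of 1.07 and 1.12 for its probes with an accession and -1.21 for the probe without, which read 3.23 on exit replicate 1. With probes that have an accession only, an alternative chosen after seeing the data, the same 6 genes were called in the same comparisons, and twk-7 differed between stages by 1.96. twk genes are paralogs, and cross-hybridisation between them was not tested.

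On assembly WBcel235 the 6 called genes lay on 6 different chromosomes. The X chromosome held 19 of the 58 genes (32.8%, where 14.0% of the measured genes with a position are on X) and chromosome V 18, a description of the family with no test. twk-33, twk-42 and twk-36 follow one another on chromosome V with 2 and 1 protein-coding genes between them. Only twk-42 among them was called, at -0.99 in dauers against mix-stage, with 0.53 for twk-33 and 0.06 for twk-36.

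Across all genes, arrays of a stage correlated at 0.467 to 0.786 in dauers and 0.464 to 0.748 in dauer exit. The median ratio of all genes was between -0.15 and -0.03 per array. As a check of the stages, the cuticle collagen genes dpy-7, rol-6 and sqt-1, made around moults, stood lower in dauers than after 12 h on food, with differences of -3.08, -4.52 and -3.83. The other 5 of the 8 epidermis markers were not called between stages, among them the collagen gene bli-1 (0.02), which was below mix-stage in both stages.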

How the data were processed

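The authors hybridised Agilent 2-colour arrays, corrected the background with normexp, normalized each array by loess weighted on spike-in controls in limma (version not given in the sources used here), and deposited log2 ratios of Cy5 over Cy3. Their column medians were -0.09 to 0.14. Before turning, arrays labelled the opposite way round correlated at -0.699 to -0.0455 and arrays of one orientation at 0.224 to 0.743. Ratios were turned by the labelled dyes to own over mix-stage. Of 45220 features, 44123 had values and 27263 of these carried 1 platform symbol, which gave 15082 genes. All 58 members matched the gene table of WBcel235 and 0 were renamed.

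lmFit and eBayes of limma 3.58.1 (R 4.3.3) were run on all genes, without covariates, and tested on simulated data. Members and gene lists were chosen with earlier results of these data known. Named were every called member, members of known role in each class, and others picked after their values were seen. Other scalings, dye and replicate terms, probe summaries and left-out arrays were tried. Spot intensities, slide identity and the time of scanning were not used here. This left out 3 alternatives (removing dim probes, correcting the background differently, slide as a block), and an unmoved gene cannot be told from one near background. No sequences are shown, since none was used here.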

Additional observations from a re-analysis of the deposited data

Results flagged for a closer look

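Single arrays that stood apart from the other 3 of their stage were found in 12 of the 116 gene and stage combinations tested, 8 of them in dauers. For normally distributed values chance flags about 1 in 20 such combinations. How often the other genes on the array are flagged was not tested, so the count is not read as a trait of these genes. In dauers these were exp-2 (2.10 on replicate 4, the others at most 0.203), twk-22 (2.32 on replicate 4, the others at most 0.411), kqt-3 (-0.713 on replicate 2, the others at least 0.360), twk-25 (0.693 on replicate 2, the others at least 1.63), twk-11 (0.479 on replicate 2), twk-28 (-0.716 on replicate 1), twk-37 (0.387 on replicate 1) and twk-7 (0.974 on replicate 3, the others at least 1.16). In dauer exit they were exp-2 (1.43 on replicate 2), unc-58 (1.19 on replicate 3), twk-13 (-0.239 on replicate 4, the others at least 0.488) and twk-29 (-0.0209 on replicate 3). All are log2 ratios to mix-stage.

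The stages differed in their departure from mix-stage by the limma contrast in twk-5 (3.10, adjusted p = 0.0194) and in the mean of the twk-7 probes (0.857, adjusted p = 0.0442). In twk-29 all 4 dauer arrays were above mix-stage and all 4 exit arrays below it, and the tested difference of 1.19 did not pass (limma adjusted p = 0.0517).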

How the results depend on the processing

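Each of the 6 called genes kept its direction in the comparisons that called it, under every alternative that left the gene whole. With twk-7 split by probe, its second probe was at -0.25 between stages and -0.003 for dauers against mix-stage. The gene twk-18 against mix-stage was called under all alternatives. The counts moved. Genes higher in dauers than in dauer exit numbered 2, but 1 (twk-5) with arrays on a common scale, with quantile normalization, with unnamed features tested too or within Cy3 arrays, 0 within Cy5 arrays (as of all genes), 4 with a dye coefficient (twk-24 and twk-29 added, with 3.08% of all genes against 2.13%), and 0 to 3 with each array left out. Genes lower in dauers than in dauer exit numbered 0, and 1 (twk-42) with quantile normalization. Genes higher in dauers than in mix-stage numbered 4, but 8 with arrays centred on their median (shw-3, twk-8, twk-33 and twk-40 added), 7 with a dye coefficient, 1 within Cy5 arrays, 7 within Cy3 arrays (6.19%, 5.97%, 1.56% and 6.25% of all genes, against 4.95%) and 3 to 6 with each array left out. Genes lower in dauers than in mix-stage numbered 2, but 1 (twk-18) within Cy3 arrays (5.66% of all genes, against 13.7%), 2 within Cy5 arrays (twk-18 and egl-23 in place of twk-42) and 1 to 3 with each array left out. Below mix-stage in dauer exit there was 1 gene, and 2 (slo-2 added) with quantile normalization or a dye coefficient. The cause of these shifts was not tested. Within-dye fits hold 2 arrays per stage.

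Deviations of dauer and exit arrays of the same replicate number correlated at 0.0703, -0.0507, 0.235 and -0.147 for replicates 1 to 4. Own RNA had the same dye in both stages for replicates 1 and 3 and opposite dyes for 2 and 4. These correlations therefore cannot tell whether the numbers pair the samples. With the number as a replicate block, 1 gene was higher in dauers than in dauer exit and 1 was lower than in mix-stage. The calls of twk-7 against dauer exit and of twk-42 against mix-stage were lost, while twk-7 in dauers stayed called against mix-stage. The number of arrays limits the precision, with a median SE of 0.30 between stages and 0.21 against mix-stage.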
